A study of Mus musculus with 12 samples.

Results

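The Hox genes are homeobox genes that lie side by side in clusters A to D, and their RNA was followed here through 12 libraries of the mouse male germline. The members were all genes with a symbol of the form Hoxa, Hoxb, Hoxc or Hoxd followed by a number. They numbered 39 of the 35652 genes in the tables of the cultured and fetal cells, and all 39 were found by Entrez ID among the 34896 genes of the postnatal tables. On GRCm38.p6 the 11 HoxA genes lie on chromosome 6 from 52155367 to 52260880, the 10 HoxB genes on chromosome 11 from 96194316 to 96368254, the 9 HoxC genes on chromosome 15 from 102921131 to 103036856, and the 9 HoxD genes on chromosome 2 from 74668225 to 74765142. Of the 39 genes, 20 overlap another annotated gene. Whether counting used strand is not given in the sources used here, so reads of those genes and of their overlapping or antisense partners may not be separated.

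The series measured RNA with SC3-seq, which sequences the 3′ ends of amplified cDNA, to characterise cohesin that holds the STAG3 subunit. Germ cells labelled as testis, from mice of genotype Vasa-RFPTg/0, were taken at E16 and E17, which are days of embryonic development, and at P7, the seventh day after birth. Germline stem cells (GSCs), the cultured form of spermatogonial stem cells, carry the transgenes Acrosin-EGFP; beta-Actin-EGFP (AAG) and were of 2 Stag3 knockout lines, KO1 and KO2, or wild type (WT). Every group held 2 libraries. Both EGFP transgenes are thus shared by the KO and WT GSCs, and the P7, E17 and E16 germ cells all carry the Vasa-RFP transgene, so that a comparison of germ cells with GSCs also compares mice of different transgenes. The labels do not say whether libraries of a group came from separate cultures or animals, and p-values below then measure the spread between these libraries only.

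Hox proteins are homeodomain transcription factors that give cells their place along the body axis. Genes at the 3′ end of a cluster, which have low numbers, act toward the head, and those at the 5′ end, which have high numbers, act toward the tail. Hox proteins bind DNA together with PBX and MEIS partners of the TALE family, and the clusters are kept silent by Polycomb proteins, kept active by trithorax proteins and divided into domains by CTCF and cohesin. In early mouse primordial germ cells the factor PRDM1 takes part in silencing the somatic Hox programme.

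Promoter windows of 300 bases, 250 before to 50 after an annotated start, were in the RefSeq table of GRCm38.p6 for 22 of the 39 genes. These were 9 genes of HoxA, 3 of HoxB, 1 of HoxC and 9 of HoxD, so HoxB and HoxC are hardly covered. That start need not be the outer end of the gene. The Hoxb8 window, from 96281655, lies within a gene annotated from 96279401 to 96285325. The Hoxa3 window, from 52213018, lies at the outer end of a gene annotated from 52169059 to 52213067, which overlaps Hoxa4, Hoxa5 and Hoxa6. Windows are shown for 4 genes whose calls went opposite ways in the comparisons below: Hoxb8, lower in fetal germ cells than in WT GSCs, and Hoxb1, Hoxa3 and Hoxd13, which were higher. Hoxb8 is chr11:96281655-96281954 on the plus strand, Hoxb1 is chr11:96365508-96365807 on the plus strand, Hoxa3 is chr6:52213018-52213317 on the minus strand and Hoxd13 is chr2:74667975-74668274 on the plus strand. Each is printed 5′ to 3′, and capitals mark matches to CCAAT or TATAAA on either strand.
Hoxb8: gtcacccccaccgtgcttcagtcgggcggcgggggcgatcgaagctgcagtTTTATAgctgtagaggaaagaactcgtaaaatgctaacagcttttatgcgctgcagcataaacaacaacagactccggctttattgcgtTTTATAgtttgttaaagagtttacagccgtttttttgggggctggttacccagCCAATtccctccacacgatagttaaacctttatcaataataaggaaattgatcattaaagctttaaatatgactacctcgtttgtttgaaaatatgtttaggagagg
Hoxb1: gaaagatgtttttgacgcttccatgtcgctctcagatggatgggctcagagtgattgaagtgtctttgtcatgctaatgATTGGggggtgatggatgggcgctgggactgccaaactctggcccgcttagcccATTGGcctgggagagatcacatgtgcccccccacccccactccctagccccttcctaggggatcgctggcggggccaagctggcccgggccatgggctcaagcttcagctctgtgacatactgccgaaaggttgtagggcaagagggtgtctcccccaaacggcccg
Hoxa3: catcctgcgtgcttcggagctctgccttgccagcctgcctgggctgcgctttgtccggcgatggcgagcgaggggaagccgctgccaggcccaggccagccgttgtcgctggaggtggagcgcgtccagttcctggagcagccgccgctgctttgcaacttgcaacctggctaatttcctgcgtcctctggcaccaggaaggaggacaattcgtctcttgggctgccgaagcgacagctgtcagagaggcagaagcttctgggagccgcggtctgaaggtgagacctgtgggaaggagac
Hoxd13: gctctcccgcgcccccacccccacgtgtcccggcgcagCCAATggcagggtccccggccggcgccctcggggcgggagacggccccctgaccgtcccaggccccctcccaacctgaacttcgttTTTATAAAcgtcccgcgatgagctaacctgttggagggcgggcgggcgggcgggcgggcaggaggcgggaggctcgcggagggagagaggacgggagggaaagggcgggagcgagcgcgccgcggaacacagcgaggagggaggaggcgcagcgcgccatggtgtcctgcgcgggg
CCAAT was found in 14 of the 22 Hox windows (63.6%) and in 37.9% of 27025 windows of all genes. TATAAA was found in 3 Hox windows (13.6%) and in 14.2% of all windows. The other motifs searched on both strands, whose matches may overlap, were TAATTA (4.55% of Hox windows and 5.31% of all), TGATTNAT (4.55% and 3.36%), the retinoid response element DR5 (0 Hox windows and 2 of all) and the CTCF core (4.55% and 3.45%). The Hox windows had a median of 56.8% G and C, against 52.7% in all windows, and a median ratio of observed to expected CpG of 0.59, against 0.39. The 4 printed windows ranged widely, with 42.3% G and C for Hoxb8, 59.3% for Hoxb1, 64.0% for Hoxa3 and 74.3% for Hoxd13.

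Total counts per library were 1938644 to 3198503 in the fetal libraries, 3230225 and 3394753 at P7, and 3312252 to 4596607 in GSCs. Levels are given as RPM, reads per 1000000 non-mitochondrial gene reads, with no correction for transcript length. Whether different genes are counted equally well was not tested, so levels of single genes are compared between groups. Shares and sums over a cluster add the reads of its genes as counted. Where a library has 0 counts of a gene, the highest level that this allows lies between 1.06 and 1.73 RPM for fetal libraries, between 0.93 and 0.99 RPM for P7 and between 0.75 and 1.05 RPM for GSCs, for counting error only. The germ cell markers Ddx4 (415 to 815 RPM) and Dazl (441 to 1921 RPM) were abundant in every library. Stag3 RNA was still counted in the knockout libraries, with 295 and 304 RPM in KO1 and 137 and 152 RPM in KO2, against 385 and 420.4 RPM in WT, and 3′ end reads outside an altered stretch do not check a knockout. The 2 E16 libraries stood further apart than those of any other group, with a chi-square of 5.96 per degree of freedom over genes, against 1.52 to 3.93 in the other 5 groups. The P7 tables use another gene list, so age and processing cannot be told apart in comparisons with P7, and some genes are listed at 0 in a whole set of tables.

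Cultured GSCs had Hox RNA almost wholly from the HoxB cluster, while fetal germ cells had all 4 clusters. HoxB genes gave 97.0% and 95.8% of Hox counts in the KO1 libraries, 97.4% and 98.7% in KO2, and 95.8% and 96.1% in WT GSCs. The same share was 35.02% and 32.2% at E16, 33.7% and 34.6% at E17, and 63.2% and 64.8% at P7. The exact 95% binomial intervals lay between 27.6% and 41.8% in the fetal libraries, between 54.8% and 73.8% at P7, and between 93.8% and 99.4% in GSCs. The intervals of the 3 kinds of cells thus did not overlap. They cover counting error within a library only, and no spread between cultures or animals. In a bulk library, fewer cells of a type and less RNA per cell cannot be told apart, here and in all results below.

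**Figure D1:**
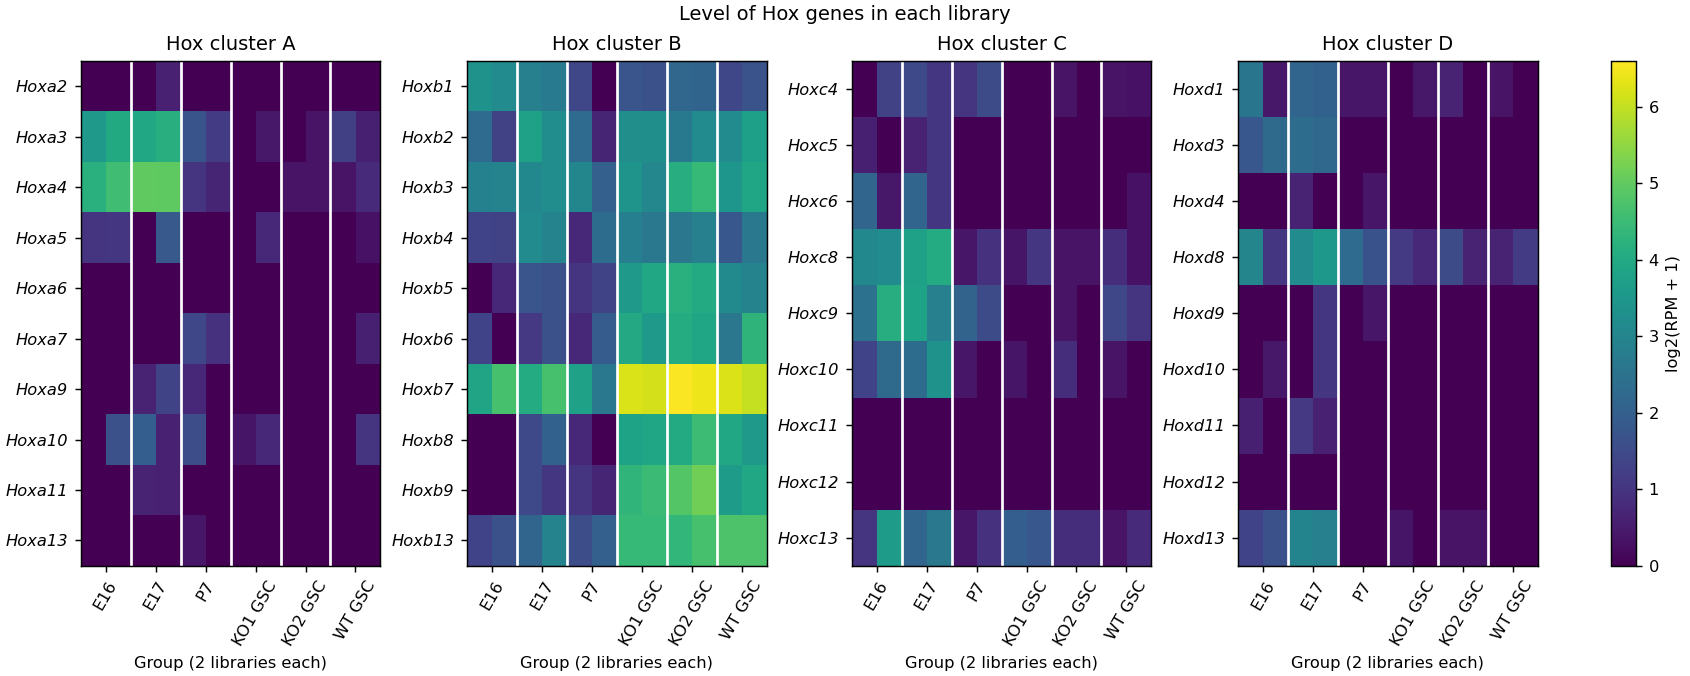
Level of Hox genes in each library as log2(RPM + 1), with a panel per cluster, genes from low to high number down each panel and 2 library columns for each of E16, E17, P7, KO1 GSC, KO2 GSC and WT GSC. In GSC columns nearly all signal lies in the HoxB panel, while the E16 and E17 columns show signal in all 4 panels, and 4 genes are at 0 in all 12 libraries.

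Summed over a cluster, HoxA genes had 40.7 ± 7.66 RPM at E16, 60.5 ± 6.25 RPM at E17 and 5.83 ± 4.31 RPM at P7, against 1.86 ± 1.81 RPM in KO1, 0.96 ± 0.21 RPM in KO2 and 3.12 ± 0.17 RPM in WT GSCs (SD, n = 2 each). HoxB genes had 41.4 ± 5.15 RPM at E16, 64.9 ± 5.94 RPM at E17 and 26.3 ± 7.46 RPM at P7, against 177.6 ± 1.84 RPM in KO1, 226.8 ± 9.96 RPM in KO2 and 167.9 ± 7.52 RPM in WT GSCs. The order thus turned round between the clusters: for HoxB every GSC library lay above every germ cell library, and for HoxA every fetal library lay above every GSC library. HoxC genes had 29.8 ± 16.1 RPM at E16, 39.5 ± 0.33 RPM at E17 and 5.41 ± 0.21 RPM at P7, against 3.51 ± 0.03 RPM in KO1, 1.77 ± 0.93 RPM in KO2 and 2.88 ± 0.55 RPM in WT GSCs. HoxD genes had 12.1 ± 6.12 RPM at E16, 25.2 ± 1.34 RPM at E17 and 3.68 ± 0.84 RPM at P7, against 1.26 ± 0.30 RPM in KO1, 1.77 ± 1.32 RPM in KO2 and 1.03 ± 0.30 RPM in WT GSCs. These sums are a description with no test.

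**Figure D2:**
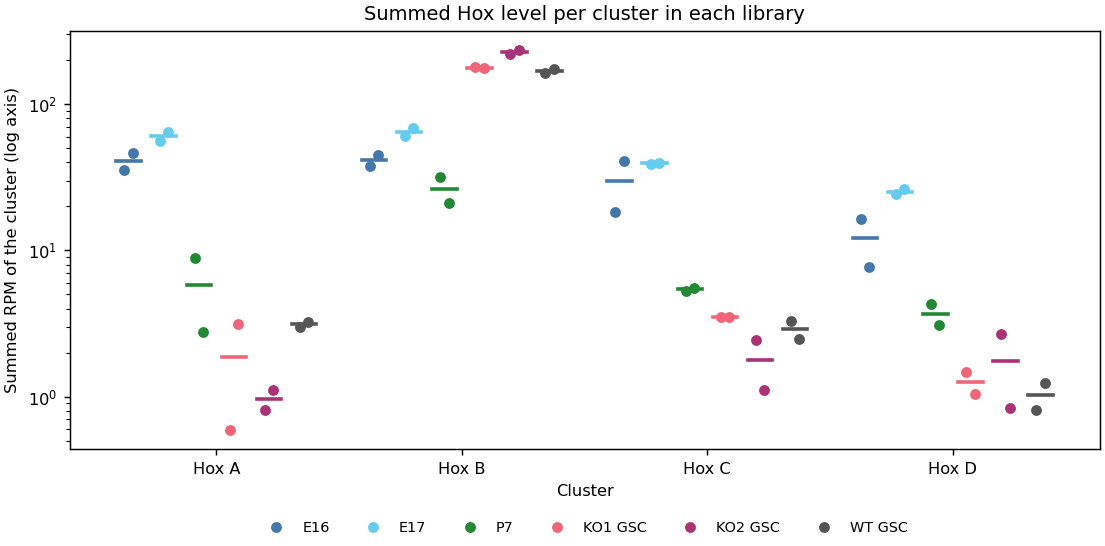
Summed RPM of each Hox cluster in each library on a log axis, with a dot per library and a line at the mean of the 2 libraries of E16, E17, P7, KO1 GSC, KO2 GSC and WT GSC. For HoxB the 6 GSC libraries sit above all 6 germ cell libraries, and for HoxA, HoxC and HoxD the 4 fetal libraries sit above all 8 others.

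Position within a cluster also separated the cells. The central HoxB genes, Hoxb5 to Hoxb8, summed to 111.5 ± 1.22 RPM in KO1, 139.4 ± 4.49 RPM in KO2 and 101.2 ± 2.1 RPM in WT GSCs, against 20.1 ± 7.38 RPM at E16, 26.4 ± 7.86 RPM at E17 and 12.4 ± 3.92 RPM at P7. The posterior HoxB genes, Hoxb9 and Hoxb13, summed to 41.0 ± 1.78 RPM in KO1, 53.2 ± 8.76 RPM in KO2 and 38.9 ± 1.80 RPM in WT GSCs, against 1.80 ± 0.44 RPM at E16, 6.53 ± 1.87 RPM at E17 and 3.33 ± 0.53 RPM at P7. The anterior HoxB genes, Hoxb1 to Hoxb4, summed to 25.1 ± 2.39 RPM in KO1, 34.3 ± 5.69 RPM in KO2 and 27.9 ± 7.82 RPM in WT GSCs, against 19.5 ± 2.66 RPM at E16, 32.0 ± 3.80 RPM at E17 and 10.6 ± 4.07 RPM at P7. In fetal cells nearly all HoxA signal came from the genes at the anterior end of the cluster, with 38.6 ± 6.12 RPM at E16 and 55.8 ± 5.40 RPM at E17.

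By detection, 10 of 10 HoxB genes had at least 3 counts in both libraries of KO1, of KO2 and of WT GSCs, and 1 of the 29 HoxA, HoxC and HoxD genes did so in each of these groups, Hoxc13 in KO1 and KO2 and Hoxc9 in WT. At E16, 6 HoxB genes and 9 others passed the same bar, at E17 8 HoxB genes and 11 others, and at P7 4 HoxB genes and 5 others. The fetal libraries thus had more genes of HoxA, HoxC and HoxD over the bar although they were the shallowest. A group mean of at least 20 RPM was reached by 4 genes. They were Hoxb7 and Hoxb13 in all GSC groups, with Hoxb7 also at E17, Hoxb9 in KO1 and KO2 GSCs, and Hoxa4 at E16 and E17. Hoxa6, Hoxc11, Hoxc12 and Hoxd12 had 0 counts in all 12 libraries. Among the low members, Hoxa2, Hoxa5, Hoxa7, Hoxa9, Hoxa10, Hoxa11, Hoxa13, Hoxc4, Hoxc5, Hoxd4, Hoxd9, Hoxd10 and Hoxd11, stayed at or under 2.89 RPM in every library.

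In Stag3 KO GSCs, Hoxb9 and Hoxb5 of the HoxB cluster were higher than in WT GSCs. This comparison sets the KO lines against WT for the cluster that GSCs express. An effect of the knockout cannot be told apart from differences between lines. Averaged over KO1 and KO2 and set against WT, 2 of the 10 HoxB genes tested rose and 0 fell. Over all 11890 genes of this comparison 19.2% were called, 8.64% higher and 10.6% lower, so a share of 2 in 10 is near that of genes at large. The 29 HoxA, HoxC and HoxD genes were too low in GSCs to be tested. Of these, Hoxc13 had 2.94 and 2.44 RPM in KO1, 0.81 and 0.83 RPM in KO2, and 0.27 and 0.75 RPM in WT, and Hoxc9 had 1 count over the 4 KO libraries and 10 counts over both WT libraries. Hoxc9 entered the test when all 12 libraries were fitted at once, and was then called lower in KO (edgeR adjusted p = 0.0352). The median log2 fold change of the 10 genes was 0.23, against 0.00 for all genes.

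Hoxb9, a gene that in mouse patterns the ribs, had 19.1 and 21.6 RPM in KO1, 27.3 and 34.7 RPM in KO2, and 11.4 and 14.2 RPM in WT. All 4 KO libraries lay above both WT libraries, with KO2 above KO1. Its log2 fold change in the mean of the lines was 0.91 ± 0.22 (SE; adjusted p = 0.000807 by edgeR, quasi-likelihood with Benjamini-Hochberg). Hoxb5, which marks long-term blood stem cells in mouse, had 10.6 and 14.7 RPM in KO1, 17.3 and 15.5 RPM in KO2, and 7.90 and 6.73 RPM in WT. Here too no KO library overlapped WT, and the log2 fold change was 0.92 ± 0.28 (edgeR adjusted p = 0.0121). Hoxb5 overlaps the antisense gene Hoxb5os, which had at most 1.66 RPM in any GSC library, while Hoxb9 overlaps no annotated gene. The Hoxb5 call was lost without WT replicate 2 (edgeR log2 fold change 0.77, adjusted p = 0.104), without KO1 replicate 2 (0.80, adjusted p = 0.0621), with all 12 libraries in one fit (0.90, adjusted p = 0.106) and with DESeq2 (0.92, adjusted p = 0.0928), with a range of 0.0097 to 0.106 over all alternatives. Hoxb9 kept its call in each alternative run for this comparison, with an adjusted p between 0.000349 and 0.028.

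**Figure D3:**
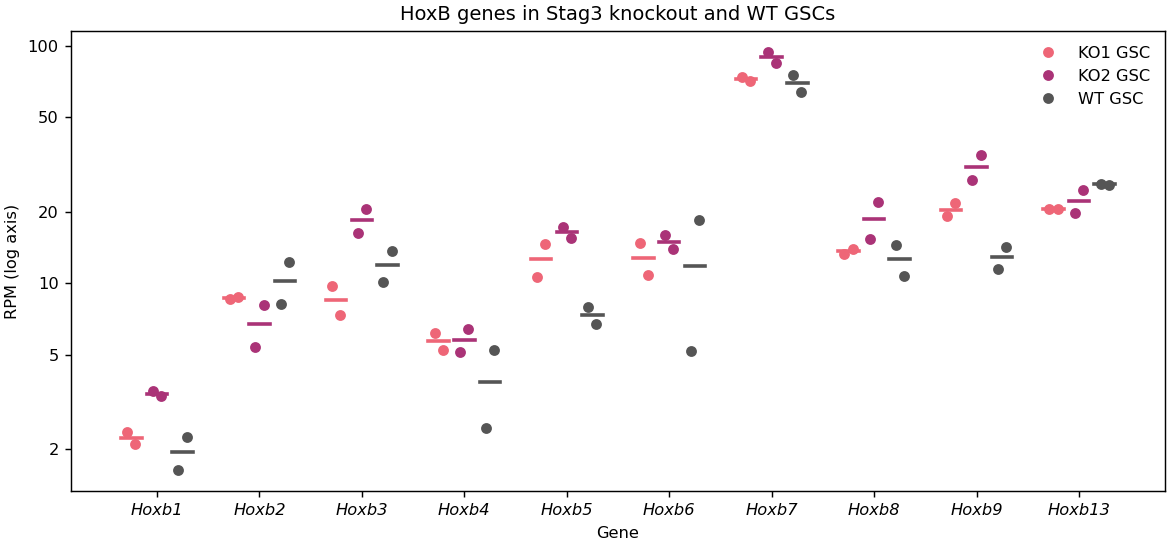
RPM of the 10 HoxB genes in each GSC library on a log axis, with a dot per library and a line at the mean of 2 libraries, for KO1, KO2 and WT from left to right at each gene. The Hoxb5 and Hoxb9 dots of both knockout lines lie above both WT dots, the Hoxb13 dots lie below them, and the WT dots of Hoxb6 lie far apart at 5.17 and 18.4 RPM.

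The lines taken singly gave these calls in KO2 and not in KO1. In KO2 against WT, where 15.6% of all genes were called, 7.19% higher and 8.45% lower, Hoxb9 rose by 1.22 ± 0.24 and Hoxb5 by 1.12 ± 0.31 on the log2 scale (edgeR adjusted p = 4.67e-05 and 0.00627). The Hoxb5 call in KO2 was lost without WT replicate 2 (0.97, edgeR adjusted p = 0.0509) and without KO2 replicate 1 (1.02, edgeR adjusted p = 0.0827), as well as with DESeq2 (1.11, adjusted p = 0.0753) and with all 12 libraries in one fit (1.10, edgeR adjusted p = 0.0843). Without WT replicate 1 the count became 3 with Hoxb7 (0.45, edgeR adjusted p = 0.0303). In KO1 against WT, where 13.6% of all genes were called, 6.24% higher and 7.4% lower, edgeR called 0 of 10 HoxB genes, with 2 at an unadjusted p under 0.05, and DESeq2 called 0. The KO1 values were 0.61 ± 0.25 for Hoxb9 (edgeR adjusted p = 0.0932) and 0.73 ± 0.33 for Hoxb5 (edgeR adjusted p = 0.131), in the same direction as in KO2. Set against each other, KO1 and KO2 differed by edgeR in 0 of 10 HoxB genes, with 3 at an unadjusted p under 0.05 and 0 called by DESeq2, where 0.833% of all genes were called. The log2 difference of KO1 from KO2 was -0.61 ± 0.23 for Hoxb9 and -0.39 ± 0.30 for Hoxb5 (edgeR adjusted p = 0.299 and 0.745), so a difference between the lines was not shown.

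The other 8 HoxB genes passed no test in the mean of the lines. Hoxb7 had 73.9 and 71.2 RPM in KO1, 94.0 and 84.9 RPM in KO2, and 75.1 and 63.8 RPM in WT, a log2 fold change of 0.17 ± 0.12. Hoxb13, whose protein is known for its part in prostate development, had 20.6 and 20.6 RPM in KO1, 19.7 and 24.7 RPM in KO2, and 26.1 and 25.9 RPM in WT. All 4 KO libraries were below WT for Hoxb13, but its log2 fold change of -0.33 ± 0.19 was not called (edgeR adjusted p = 0.222). Hoxb3, which with its paralogs shapes the hindbrain and pharyngeal region, had 9.71 and 7.33 RPM in KO1, 16.2 and 20.5 RPM in KO2, and 10.1 and 13.7 RPM in WT. Both KO1 libraries were below WT and both KO2 libraries above it, and the log2 difference of KO1 from KO2 was -1.09 ± 0.30 (edgeR adjusted p = 0.0569). Hoxb6 had 14.7 and 10.8 RPM in KO1, 15.9 and 13.9 RPM in KO2, and 5.17 and 18.4 RPM in WT. Its value turned on the WT library used: the log2 fold change of the mean of the lines was 1.33 without WT replicate 2 (edgeR adjusted p = 0.00626) and -0.45 without WT replicate 1 (edgeR adjusted p = 0.303), and without WT replicate 2 it was the gene called in KO1 as well (1.22, edgeR adjusted p = 0.0295). The remaining values were 0.45 ± 0.59 for Hoxb1, -0.47 ± 0.30 for Hoxb2, 0.51 ± 0.43 for Hoxb4 and 0.29 ± 0.24 for Hoxb8.

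Markers of other cells moved between KO and WT GSCs too. The mesenchyme and fibroblast list of 13 genes summed to 249 to 261 RPM in KO and 282 to 289 RPM in WT, with 6 of 8 tested genes lower and 0 higher. The Sertoli list of 12 genes summed to 43.2 to 63.9 RPM in KO and 32.9 to 36.6 RPM in WT, with 2 of 5 tested genes higher and 1 lower, and of its defining markers Amh was at 0 in all libraries while Sox9 had 8.53 and 8.38 RPM in KO1, 2.97 and 2.77 RPM in KO2, and 1.63 and 2.74 RPM in WT. In this comparison 19.2% of all genes were called, 8.64% higher and 10.6% lower. The part of these markers in the Hox results was not tested.

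From E16 to E17 no Hox gene was called. The edgeR test called 0 of 13 tested Hox genes, 2 had an unadjusted p under 0.05, DESeq2 called 0, and 6.6% of all 14776 genes were called, 1.64% higher and 4.96% lower. These 2 were Hoxb4, with 8.09 and 6.80 RPM at E17 and 1.49 and 1.41 RPM at E16, and Hoxb2, with 12.7 and 8.37 RPM at E17 and 3.98 and 1.41 RPM at E16. For both genes the E17 libraries were above the E16 libraries, with log2 fold changes of 1.99 ± 0.83 and 1.69 ± 0.75 (edgeR adjusted p = 0.169 and 0.197). Scaling mattered here, because RPM put the genes of this comparison 0.34 higher on the log2 scale at E17 than the TMM scaling of the test did. The summed HoxA level was 0.57 higher in RPM and 0.23 higher with TMM on the log2 scale, and the summed HoxB level 0.65 and 0.31 higher. The E16 libraries disagreed on several genes and in both directions. Hoxc13, a hair follicle gene, had 0.99 and 11.3 RPM, and Hoxc9, a thoracic motor neuron gene, had 4.47 and 16.2 RPM. The first library was the higher for Hoxd1 (4.97 and 0.35 RPM), Hoxc6 (3.48 and 0.35 RPM) and Hoxd8 (6.96 and 1.06 RPM). Without E16 replicate 1, edgeR called 4 Hox genes, Hoxb2 (2.47) and Hoxd8 (2.70) higher and Hoxc9 (-1.13) and Hoxc13 (-1.74) lower at E17, and 3645 genes in all against 975.

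By P7 the Hox genes that marked fetal germ cells were low or not detected. Of 13 Hox genes tested against E17, 8 fell and 0 rose, with 67.9% of all genes called, 30.2% higher and 37.8% lower. The median log2 fold change of the 13 genes was -2.53, also with Hoxd13 set at its bound, against -0.13 for all genes, which were 0.16 lower still on the RPM scale. A gene could pass the filter through its E17 or E16 libraries alone, so these counts describe the genes that passed.

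HoxA genes were among them. Hoxa4, a patterning gene of the neck vertebrae, had 0.99 and 0.62 RPM at P7, against 30.6 and 30.4 RPM at E17, a log2 fold change of -5.01 ± 0.49 (edgeR adjusted p = 5.22e-07). Hoxa3, needed for thymus and parathyroid, had 2.30 and 1.24 RPM at P7 and 14.4 and 16.7 RPM at E17, a log2 fold change of -2.96 ± 0.52 (edgeR adjusted p = 0.00015). For both genes the P7 libraries lay below the E17 libraries. Among the posterior and central genes of HoxC and HoxD, Hoxc8 had 0.33 and 0.93 RPM at P7 and 12.7 and 15.7 RPM at E17 (log2 fold change -4.22 ± 0.65, edgeR adjusted p = 4.71e-05). Hoxd13, the digit and genital tubercle gene, had 0 counts in both P7 libraries and 6.94 and 6.28 RPM at E17, and was at least 6.90-fold lower against the mean floor of 3 counts per library.

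The other calls at P7 against E17 were weaker. Hoxb1, which sets rhombomere identity in the hindbrain, had 1.64 and 0 RPM at P7 and 6.36 and 5.76 RPM at E17 (log2 fold change -2.68 ± 0.86, edgeR adjusted p = 0.0122), and lost its call without E17 replicate 1 (-2.59, edgeR adjusted p = 0.0542) or P7 replicate 2 (-1.68, edgeR adjusted p = 0.0928). Hoxb2, which acts in facial motor neuron development, had 3.95 and 0.62 RPM at P7 and 12.7 and 8.37 RPM at E17 (-2.04 ± 0.73, edgeR adjusted p = 0.022). Its call was lost without E17 replicate 1 (-1.69, adjusted p = 0.204), E17 replicate 2 (-2.29, adjusted p = 0.0602) or P7 replicate 2 (-1.23, adjusted p = 0.189), all by edgeR, and with DESeq2 (-2.09, adjusted p = 0.0528). Hoxc9 had 3.29 and 1.85 RPM at P7 and 13.3 and 6.28 RPM at E17 (-1.75 ± 0.69, edgeR adjusted p = 0.0343). Its call was lost without E17 replicate 1 (-1.10, adjusted p = 0.302), P7 replicate 1 (-2.16, adjusted p = 0.059) or P7 replicate 2 (-1.38, adjusted p = 0.174), all by edgeR, and with DESeq2 (-1.80, adjusted p = 0.0544). Hoxb3, Hoxb4, Hoxb7, Hoxc13 and Hoxd8 were not called, with log2 fold changes of -0.47, -1.47, -1.01, -2.53 and -1.44. Hoxb7 had 12.8 and 5.25 RPM at P7 and 15.6 and 24.6 RPM at E17 (edgeR adjusted p = 0.0602). It was called without E17 replicate 1 (-1.27, edgeR adjusted p = 0.0442) or P7 replicate 1 (-1.74, edgeR adjusted p = 0.0175), and Hoxb4 was called without P7 replicate 2 (-3.22, edgeR adjusted p = 0.0361).

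P7 germ cells had far less HoxB RNA than WT GSCs, which are commonly derived from early postnatal testes. Of the 10 HoxB genes 8 were lower at P7 and 0 higher. HoxA, HoxC and HoxD genes could pass the filter through the fetal libraries of the same fit and were low in both P7 and WT GSCs, with Hoxd3 and Hoxd13 at 0 counts in both, so nothing is read from their tests. Over all 15827 genes 31% were called, 16% higher and 15% lower, and the median log2 fold change was -2.74 for the 10 HoxB genes and 0.03 for all genes. RPM put P7 0.13 higher than TMM did on the log2 scale.

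Hoxb7 had 12.8 and 5.25 RPM at P7, against 75.1 and 63.8 RPM in WT GSCs, a log2 fold change of -3.08 ± 0.27 (edgeR adjusted p = 1.56e-11). Hoxb13 had 1.97 and 3.09 RPM at P7 and 26.1 and 25.9 RPM in WT GSCs, a log2 fold change of -3.46 ± 0.38 (edgeR adjusted p = 4.06e-09). Hoxb9 had 0.99 and 0.62 RPM at P7 and 11.4 and 14.2 RPM in WT GSCs, a log2 fold change of -4.07 ± 0.52 (edgeR adjusted p = 1.14e-07). In all 3 genes each P7 library lay below each WT library, which describes these genes only, since the share of all genes so separated is not given. Hoxb8, known in mouse for its part in grooming behaviour, had 2 counts over both P7 libraries and 14.4 and 10.7 RPM in WT GSCs, and was 39.2 times lower (exact 95% counting interval 10.6 to 328). Hoxb5 had 0.99 and 1.55 RPM at P7 and 7.90 and 6.73 RPM in WT GSCs, a log2 fold change of -2.61 ± 0.57 (edgeR adjusted p = 0.000431). Hoxb6 had 0.66 and 2.78 RPM at P7 and 5.17 and 18.4 RPM in WT GSCs, a log2 fold change of -2.87 ± 0.60 (edgeR adjusted p = 0.000272) that lost its call without WT replicate 2 (-1.69, adjusted p = 0.0875).

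Of the anterior HoxB genes, Hoxb3 and Hoxb2 were called lower at P7. Hoxb3 had 7.23 and 3.09 RPM at P7 and 10.1 and 13.7 RPM in WT GSCs, a log2 fold change of -1.34 ± 0.40 (edgeR adjusted p = 0.00951), and lost its call without WT replicate 2 (-1.12, adjusted p = 0.103) or P7 replicate 2 (-0.88, adjusted p = 0.18). Hoxb2 had 3.95 and 0.62 RPM at P7 and 8.17 and 12.2 RPM in WT GSCs, a log2 fold change of -2.30 ± 0.55 (edgeR adjusted p = 0.00129), and lost its call without P7 replicate 2 (-1.52, adjusted p = 0.0596). Hoxb1 and Hoxb4 were not called, at -1.37 ± 0.87 and -0.82 ± 0.64, although Hoxb1 was called without P7 replicate 1 (edgeR adjusted p = 0.0314), which leaves a P7 library with 0 counts. The Sertoli list summed to 72.0 to 108.8 RPM at P7 and 32.9 to 36.6 RPM in WT GSCs, with 6 of 9 tested genes higher and 1 lower. The mesenchyme list summed to 398 to 412 RPM at P7 and 282 to 289 RPM in WT GSCs, with 2 of 11 higher and 2 lower. The erythroid list summed to 12.5 and 82.5 RPM at P7 and 0.25 to 0.27 RPM in WT GSCs (4 of 5 higher), and the endothelial list to 14.5 and 14.8 RPM at P7 and 3.24 to 4.63 RPM in WT GSCs (2 of 4 higher). In this comparison 31% of all genes were called, 16% higher and 15% lower. The part of these markers in the lower HoxB levels was not tested.

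Fetal germ cells differed from WT GSCs in both directions. Their summed level was lower for HoxB and higher for HoxA, HoxC and HoxD. Of 22 Hox genes tested 13 were higher and 8 lower in fetal cells, with 74.2% of all genes called, 41.9% higher and 32.3% lower, and a share of calls this large makes a call by itself common. All 3 HoxA, 5 HoxC and 4 HoxD genes that passed the filter were higher, while among the 10 HoxB genes 8 were lower, Hoxb1 was higher and Hoxb4 was not called. Genes of HoxA, HoxC and HoxD that passed could do so through the fetal libraries alone. Their count, their medians and their single calls below are thus no evidence on the clusters as wholes. The median log2 fold change was 3.78 for the HoxA genes tested, -2.47 for HoxB, 3.43 for HoxC and 5.14 for HoxD (2.47 with Hoxd3 and Hoxd13 at their bounds), against 0.23 for all genes, and RPM put fetal cells 0.14 higher than TMM did.

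**Figure D4:**
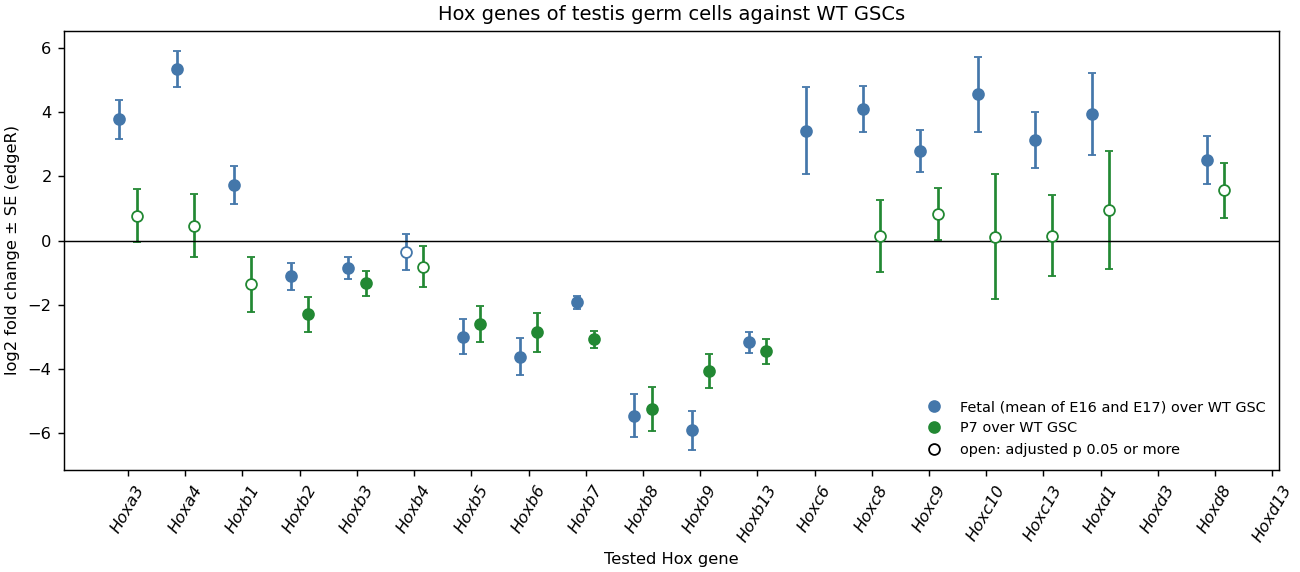
Log2 fold change with its SE from edgeR for tested Hox genes in order of cluster and number, fetal germ cells over WT GSCs and P7 germ cells over WT GSCs, with open points for an adjusted p of 0.05 or more. Points with 0 counts in either group are left out. Fetal points lie above 0 for HoxA, HoxC and HoxD and below 0 from Hoxb2 to Hoxb13, and filled P7 points are HoxB genes only.

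Hoxa4 had 17.4 and 22.9 RPM at E16 and 30.6 and 30.4 RPM at E17, against 0.27 and 0.75 RPM in WT GSCs, a log2 fold change of 5.35 ± 0.56 (edgeR adjusted p = 1.57e-10). Hoxa3 had 10.9 and 15.1 RPM at E16 and 14.4 and 16.7 RPM at E17, against 1.36 and 0.50 RPM in WT GSCs, a log2 fold change of 3.78 ± 0.61 (edgeR adjusted p = 1.21e-06). Hoxa3 and Hoxa4 overlap in the annotation, so reads of one may count for the other. Both genes had each fetal library above each WT library. In HoxB, Hoxb1 had 9.44 and 8.10 RPM at E16 and 6.36 and 5.76 RPM at E17, against 1.63 and 2.24 RPM in WT GSCs, a log2 fold change of 1.74 ± 0.59 (edgeR adjusted p = 0.00798) that lost its call without WT replicate 1 (1.53, adjusted p = 0.0677).

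In HoxC, Hoxc8, a gene of the thoracic skeleton and brachial motor neurons, had 7.45 and 8.10 RPM at E16 and 12.7 and 15.7 RPM at E17, against 0.82 and 0.25 RPM in WT GSCs, a log2 fold change of 4.10 ± 0.72 (edgeR adjusted p = 4.94e-06). Hoxc9 had 4.47 and 16.2 RPM at E16 and 13.3 and 6.28 RPM at E17, against 1.63 and 1.00 RPM in WT GSCs, a log2 fold change of 2.80 ± 0.66 (edgeR adjusted p = 0.000301). Hoxc10, a gene of the lumbar region, had 1.49 to 9.42 RPM in fetal libraries and 1 count in WT, a ratio of 35.3 (exact 95% counting interval 5.97 to 1429). Fetal libraries lay above both WT libraries for these genes, by a wide margin for Hoxc8. Hoxc13 had 0.99 and 11.3 RPM at E16 and 3.47 and 5.23 RPM at E17, against 0.27 and 0.75 RPM in WT GSCs, a log2 fold change of 3.14 ± 0.88 (edgeR adjusted p = 0.00171), and its call was lost without E16 replicate 2 (1.73, adjusted p = 0.156). Hoxc6 had 3.48 and 0.35 RPM at E16 and 3.47 and 1.05 RPM at E17 against 1 count in WT, a ratio of 14.5 (exact 95% counting interval 2.25 to 607). The Hoxc6 call (edgeR adjusted p = 0.0235) was lost without either WT library (edgeR adjusted p = 0.177 and 0.0633), with DESeq2 (adjusted p = 0.433), without the filter (edgeR adjusted p = 0.0773) and with a replicate block (edgeR adjusted p = 0.0505).

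In HoxD, Hoxd3 and Hoxd13 had 0 counts in both WT libraries. Hoxd3 had 2.48 and 3.87 RPM at E16 and 4.05 and 3.66 RPM at E17, at least 4.50-fold higher against the mean floor of 3 counts per WT library (edgeR adjusted p = 0.000383; DESeq2 adjusted p = 0.0599). Hoxd13 had 1.49 and 2.11 RPM at E16 and 6.94 and 6.28 RPM at E17, at least 5.38-fold higher on the same floor (edgeR adjusted p = 0.000291). Both were detected in all 4 fetal libraries and passed the filter through these alone. Their adjusted p-values therefore add no support beyond the counts given here. Hoxd1, which in mouse acts in pain-sensing neurons, had 4.97 and 0.35 RPM at E16 and 3.47 and 3.14 RPM at E17 against 1 count in WT, a ratio of 20.8 (exact 95% counting interval 3.38 to 857). Its call (edgeR adjusted p = 0.00613) was lost without WT replicate 2 (adjusted p = 0.103), without E16 replicate 1 (adjusted p = 0.167), and with DESeq2 (adjusted p = 0.114). Hoxd8 had 6.96 and 1.06 RPM at E16 and 8.09 and 10.5 RPM at E17, against 0.54 and 1.25 RPM in WT GSCs, and the groups overlapped. Its log2 fold change was 2.51 ± 0.76 (edgeR adjusted p = 0.0035), and the call was lost without WT replicate 1 (2.05, adjusted p = 0.0518) or E16 replicate 1 (1.62, adjusted p = 0.0927).

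The lower calls ran from Hoxb2 to Hoxb13. Hoxb9 had 0 counts in both E16 libraries and 1.73 and 1.05 RPM at E17, against 11.4 and 14.2 RPM in WT GSCs, a log2 fold change of -5.92 ± 0.61 (edgeR adjusted p = 1.32e-10). Hoxb8 had 0 counts in both E16 libraries and 1.73 and 3.14 RPM at E17, against 14.4 and 10.7 RPM in WT GSCs, a log2 fold change of -5.47 ± 0.67 (edgeR adjusted p = 6.32e-09). These log2 values average E16, where the counts are 0, and so depend on the prior count of the fit. Hoxb6 had 1.49 and 0 RPM at E16 and 1.16 and 2.09 RPM at E17, against 5.17 and 18.4 RPM in WT GSCs, a log2 fold change of -3.63 ± 0.58 (edgeR adjusted p = 9.31e-07). Hoxb13 had 1.49 and 2.11 RPM at E16 and 3.47 and 6.80 RPM at E17, against 26.1 and 25.9 RPM in WT GSCs, a log2 fold change of -3.18 ± 0.32 (edgeR adjusted p = 4.08e-11). Hoxb5 had 0 and 0.70 RPM at E16 and 2.31 and 2.09 RPM at E17, against 7.90 and 6.73 RPM in WT GSCs, a log2 fold change of -3.00 ± 0.54 (edgeR adjusted p = 6.79e-06). For each of these 5 genes the highest fetal library was below the lowest WT library. The share of all genes separated in this way is not given, so this describes these genes only.

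Hoxb7 kept a sizeable level in fetal cells, with 13.4 and 24.6 RPM at E16 and 15.6 and 24.6 RPM at E17, against 75.1 and 63.8 RPM in WT GSCs, a log2 fold change of -1.93 ± 0.20 (edgeR adjusted p = 1.32e-10). Hoxb3 had 6.46 and 6.69 RPM at E16 and 7.51 and 8.37 RPM at E17, against 10.1 and 13.7 RPM in WT GSCs, a log2 fold change of -0.85 ± 0.34 (edgeR adjusted p = 0.0239). Its call was lost with RLE scaling (-0.66, edgeR adjusted p = 0.0802), with DESeq2 (-0.66, adjusted p = 0.127) and without WT replicate 2 (-0.64, edgeR adjusted p = 0.198). Hoxb2 and Hoxb4 overlapped between fetal cells and WT GSCs. Hoxb2 had 3.98 and 1.41 RPM at E16 and 12.7 and 8.37 RPM at E17, against 8.17 and 12.2 RPM in WT GSCs, a log2 fold change of -1.12 ± 0.43 (edgeR adjusted p = 0.0198). Its call was lost with RLE scaling (-0.93, edgeR adjusted p = 0.0534), with DESeq2 (-0.92, adjusted p = 0.106), without WT replicate 2 (-0.83, edgeR adjusted p = 0.191) and without E17 replicate 2 (-1.0, edgeR adjusted p = 0.0527). Hoxb4, known for expanding blood stem cells in culture, had 1.49 and 1.41 RPM at E16 and 8.09 and 6.80 RPM at E17, against 2.45 and 5.23 RPM in WT GSCs, a log2 fold change of -0.36 ± 0.56.

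Lists of markers of other testis cells summed higher in the fetal libraries as well. Their part in the higher HoxA, HoxC and HoxD levels was not tested. Against WT GSCs, 74.2% of all genes were called in fetal cells, 41.9% higher and 32.3% lower. The peritubular myoid list of 5 genes summed to 85.9 to 116 RPM in fetal libraries and 5.98 to 9.53 RPM in WT GSCs, with 4 of 4 tested genes higher. The mesenchyme list of 13 genes summed to 367 to 619 RPM and 282 to 289 RPM, with 6 of 11 higher. The Sertoli list of 12 genes summed to 151 to 178 RPM and 32.9 to 36.6 RPM, with 6 of 9 higher and 1 lower, and the endothelial list of 4 genes to 67.1 to 119.6 RPM and 3.24 to 4.63 RPM, with 3 of 4 higher. Leydig genes summed to 31.7 to 40.5 RPM and 1.91 to 2.24 RPM (2 of 3 higher), macrophage genes to 8.10 to 11.5 RPM and 0.50 to 0.54 RPM (2 of 2 higher), and erythroid genes to 90.2 to 273 RPM and 0.25 to 0.27 RPM (5 of 5 higher). Among defining markers, Amh of Sertoli cells and Insl3 of Leydig cells were at 0 in all fetal and WT GSC libraries. Other defining markers were detected: Sox9 of Sertoli cells had 3.98 to 5.28 RPM in fetal libraries and 1.63 and 2.74 RPM in WT GSCs, and Pecam1 of endothelial cells had 6.34 to 22.5 RPM in fetal libraries and 3.54 and 1.74 RPM in WT GSCs. Cyp17a1 of Leydig cells (0.35 to 3.66 RPM) and Adgre1 of macrophages (0.50 to 6.28 RPM) were found in the fetal libraries and were at 0 in WT GSCs. Myh11 of myoid cells stood at 13.7 to 19.4 RPM in fetal libraries and 1.09 and 0.25 RPM in WT GSCs. Alas2 of erythroid cells had 31.3 to 48.1 RPM and 0.27 and 0.25 RPM. Of the mesenchyme markers, Pdgfra had 16.9 to 21.4 RPM in fetal libraries and 6.81 and 11.2 RPM in WT GSCs. Col1a1 overlapped, with 17.4 and 8.45 RPM at E16, 28.9 and 36.1 RPM at E17, and 13.6 and 16.2 RPM in WT GSCs. At P7 Col1a1 was higher, with 57.5 and 65.8 RPM. The myoid list summed to 11.5 and 22.0 RPM at P7 and 105.2 and 116.2 RPM at E17, with 4 of 4 tested genes called lower. The endothelial list summed to 14.5 and 14.8 RPM at P7 and 119.6 and 104.1 RPM at E17 (2 of 4 lower). The erythroid list summed to 12.5 and 82.5 RPM at P7 and 90.2 and 106.8 RPM at E17 (1 of 5 lower). Its genes Hba-a1 and Hbb-bs lay above both E17 libraries in P7 replicate 2. At P7 against E17, 2 of 9 Sertoli, 2 of 3 Leydig and 1 of 2 macrophage genes were lower and 0 higher. Of 10 mesenchyme genes, 5 were lower and 2 higher. Between E17 and P7, 67.9% of all genes were called, 37.8% lower. The germ cell list of 6 genes summed to 2085 to 2649 RPM in fetal libraries, 3380 and 3515 RPM at P7 and 2900 and 3224 RPM in WT GSCs.

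Of 9 tested TALE partners of Hox proteins, 7 were higher and 2 lower in fetal cells than in WT GSCs, a comparison in which 74.2% of all genes were called, 41.9% higher and 32.3% lower. Meis2 had 17.89 and 17.95 RPM at E16 and 36.4 and 29.3 RPM at E17, against 0.27 and 1.00 RPM in WT GSCs (5.01 ± 0.57, edgeR adjusted p = 9.99e-10). Pbx2 (1.87), Pbx3 (2.15) and Meis3 (4.48) were higher as well, as were Meis1, with 8.10 to 12.7 RPM in fetal libraries and 0 and 0.75 RPM in WT GSCs, and Pknox2, with 6.80 to 13.3 RPM in fetal libraries and 0 counts in WT GSCs. The other two, Pbx4 (-0.77) and Pknox1 (-1.18), were lower. Against E17, 7 of the 9 fell at P7, among them Pbx2 (-2.59), Pbx3 (-3.13), Meis1 (-2.40), Meis2 (-4.87), Meis3 and Pknox2, the last of which had 1 count at P7 and Meis3 none, and Pknox1 rose (1.14). At P7, Pbx2 lay below its WT GSC level (-0.68). In KO against WT GSCs, Pbx3 rose, with 15.01 and 10.8 RPM in KO1, 14.6 and 10.5 RPM in KO2 and 6.26 and 7.23 RPM in WT (0.87, edgeR adjusted p = 0.0268), and Pbx4 fell (-0.80, edgeR adjusted p = 0.0255), of 5 tested. No TALE gene was called by edgeR between E17 and E16. Of all genes, 67.9% were called at P7 against E17, 37.8% lower, and 19.2% in KO against WT GSCs.

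Genes that set Hox expression through retinoic acid and the Cdx factors were partly called. In KO against WT, 1 of 2 tested fell, the retinoic acid receptor Rarg, with 2.94 and 1.397 RPM in KO1, 2.16 and 3.05 RPM in KO2 and 10.3 and 9.97 RPM in WT (-2.11 ± 0.40, edgeR adjusted p = 2.61e-05). In fetal cells against WT GSCs 4 of 6 were higher, Rarb (3.58), the retinoic acid degrading enzymes Cyp26a1 (2.68) and Cyp26b1 (4.99), and the homeobox gene Cdx1, with 7.39 to 14.9 RPM in fetal libraries and 1 count in WT GSCs, and Rara was lower (-3.08). At P7 against E17, Rara (2.53) and Cyp26a1 (1.23) rose and Rarb (-3.85), Cyp26b1 (-1.81) and Cdx1 fell, the last to 0 counts. At P7 against WT GSCs, Cyp26a1 (3.88) and Cyp26b1 (3.96) were higher. Between E17 and E16, 0 of 6 were called. The shares of all genes called were 19.2% in KO against WT and 74.2% in fetal cells against WT GSCs. They were 67.9% at P7 against E17, 31% at P7 against WT GSCs and 6.6% at E17 against E16.

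Among Polycomb genes, 2 of 13 rose and 3 fell in KO against WT GSCs, where 19.2% of all genes were called. Ezh2, the methyltransferase of the repressive complex, had 137 and 128 RPM in KO1, 137 and 133 RPM in KO2 and 72.7 and 80.0 RPM in WT (0.76 ± 0.10, edgeR adjusted p = 7.32e-09), and Jarid2 rose too (0.28). Cbx2 (-0.69), Cbx7 (-0.78) and Cbx8 (-0.70), which encode readers of the Polycomb mark, fell. In fetal cells against WT GSCs, where 74.2% of all genes were called, 3 of 13 were higher, Ezh1 (1.84), Eed (0.55) and Cbx7 (1.19), and 8 lower, among them Ezh2 (-1.15), Suz12 (-1.55), Jarid2 (-0.40), Ring1 (-2.45), Rnf2 (-0.70), Pcgf2 (-1.51) and Cbx2 (-1.08). At P7 against E17, Ezh2 (0.79), Suz12 (1.30), Jarid2 (0.63) and Cbx2 (1.37) rose and Ezh1 (-1.01) and Eed (-0.41) fell. At P7 against WT GSCs, Ezh1 (0.54) and Cbx7 (1.02) were higher and Ring1 (-1.87) and Pcgf2 (-1.10) lower, and at E17 against E16, Bmi1 (1.07) rose and Ezh1 (-0.61) fell.

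Of 8 trithorax and H3K27 demethylase genes, Kdm6a rose (0.77) and Men1 fell (-0.45) in KO against WT GSCs, where 19.2% of all genes were called. The share of all genes called was 74.2% in fetal cells against WT GSCs and 67.9% at P7 against E17, so calls there were common. At P7 against WT GSCs it was 31%. In fetal cells against WT GSCs, Kmt2b (1.36) and Ash2l (0.57) were higher and Kmt2a (-1.37), Men1 (-2.14), Wdr5 (-0.21), Rbbp5 (-0.91) and Kdm6b (-2.20) lower. At P7 against E17 5 of the 8 rose, Kmt2a (1.81), Men1 (1.13), Rbbp5 (0.92), Kdm6a (0.85) and Kdm6b (1.24), and Kmt2b (-1.20), Wdr5 (-0.30) and Ash2l (-0.48) fell. At P7 against WT GSCs, Kdm6a (1.20) was higher and Men1 (-0.83), Wdr5 (-0.68) and Kdm6b (-0.83) lower. The insulator factor Ctcf was not called in KO against WT, was lower in fetal cells than in WT GSCs (-0.71), and rose at P7 against E17 (1.05). Maz was lower at P7 than at E17 (-1.67) and than in WT GSCs (-1.06). Adnp was listed at 0 in all GSC and fetal tables and at 213 and 207 RPM at P7, where another gene list was used, and is not compared.

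Transcripts beside the Hox genes were tested where they passed the filter. Haglr, a noncoding RNA of the HoxD cluster, had 5.47 and 7.74 RPM at E16 and 9.25 and 9.94 RPM at E17, 0 and 0.31 RPM at P7, and 0 counts in all 6 GSC libraries, and was called higher in fetal cells than in WT GSCs and lower at P7 than at E17. Hoxb3os, antisense to Hoxb3, had 0.99 and 0 RPM at P7 and 5.99 and 4.24 RPM in WT GSCs, and was called lower (-3.43, edgeR adjusted p = 0.00187). Hotair and Hottip had at most 1.99 RPM in any library. The microRNA genes Mir10a, Mir10b, Mir196a-1, Mir196a-2, Mir196b and Mir615 had at most 0.35 RPM in the GSC and fetal libraries and were not analysed here at P7.

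The nearest protein coding genes outside the clusters did not move as a block. In KO against WT GSCs, 2 of 11 tested rose and 2 fell, where 19.2% of all genes were called. Cbx5, next to HoxC, rose (0.59, edgeR adjusted p = 5.07e-07), and Lnpk, next to HoxD, rose too (0.78, edgeR adjusted p = 0.021), while Calcoco1 near HoxC (-1.88) and Mtx2 near HoxD (-0.26) fell. The lines differed in Mtx2 (0.76 for KO1 against KO2, edgeR adjusted p = 8.66e-08), which fell in KO2 (-0.64, edgeR adjusted p = 1.27e-06) and was not called in KO1 (0.12, edgeR adjusted p = 0.464). Next to HoxB, whose genes hold both Hox calls, neither of the tested neighbours Skap1 and Snx11 was called. In fetal cells against WT GSCs 5 of 13 were higher and 4 lower, with 74.2% of all genes called, 41.9% higher and 32.3% lower. Evx1, at the 5′ end of HoxA, had 0 and 3.87 RPM at E16, 3.47 and 3.14 RPM at E17 and 0 counts in all GSC libraries, and Ttll6, beyond the 5′ end of HoxB, had 9.44 to 28.3 RPM in fetal libraries and 0 and 0.25 RPM in WT GSCs. Ttll6 was thus higher in fetal cells where Hoxb13 and Hoxb9 were lower. The other fetal calls were Skap2 (0.34), Skap1 (0.72) and Lnpk (1.35) higher and Snx10 (-2.45), Smug1 (-1.32), Cbx5 (-0.60) and Mtx2 (-0.65) lower. At P7 against E17, 3 of 12 rose, Snx10 (2.85), Snx11 (1.05) and Mtx2 (0.79), and 4 fell, Skap2 (-1.13), Ttll6 (-3.39), Skap1 (-2.92) and Lnpk (-1.18). At P7 against WT GSCs, Calcoco1 (1.83) and Ttll6 were higher, and Skap2 (-0.81), Skap1 (-2.70), Atp5g2 (-0.47) and Cbx5 (-0.53) lower, of 13 tested. Between E17 and E16, Skap1 (-1.03) and Atp5g2 (-1.11) fell, of 12 tested. Of all genes, 67.9% were called at P7 against E17, 31% at P7 against WT GSCs and 6.6% at E17 against E16.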

How the data were processed

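RNA was measured in 12 libraries of 6 groups of 2. Tools named per the submitters' processing notes are Salmon 1.4.0, HTSeq 0.9.1, TopHat2 2.1.1 and cutadapt 1.18, with build GRCm38.p6, and no role or order is stated. The authors deposited raw read counts per gene, with 1 ng of RNA amplified per library per the labels. Wild-type titles and table names number the replicates oppositely, and the titles were used. RPM was computed here as counts per 1000000 non-mitochondrial gene counts.

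Counts were tested with edgeR 4.0.16 (R 4.3.3) with TMM, the default expression filter and the quasi-likelihood test. The threshold was 0.05 on the Benjamini-Hochberg adjusted p. There were 3 fits: the 6 GSC libraries, the 6 germ cell libraries, and all 12 libraries for germ cells against WT GSCs. The KO libraries thus entered the fit of germ cells against WT GSCs. The fits with germ cells used genes in both gene lists (31675). Fetal values are the mean of E16 and E17. The code was tested on simulated counts. Intervals and the floor of 3 counts cover counting error only, and amplified reads are not independent molecules. Where libraries of named genes are said not to overlap between groups, the share of all genes without overlap is not given. Alternatives were RLE scaling, DESeq2 1.42.0, no filter, a replicate block, ERCC spike-in scaling, 1 fit of all libraries, and leaving out each library. The fit of all libraries was an alternative only for the comparisons within GSCs and within germ cells. Summaries and figures used Python 3.11.15.

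The members and lists were chosen with earlier results of these data known. Named are members called in any comparison or reaching a group mean of 20 RPM, and called genes of the context lists (TALE, Cdx and retinoid, Polycomb, trithorax, insulator, noncoding and flanking genes). Replicate numbers did not pair the libraries, since correlations of replicate differences over 7766 genes were -0.141 to 0.09. Results for some members and context genes are not reported here.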

Additional observations from a re-analysis of the deposited data

Results flagged for a closer look

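Hoxb3 stood out in the GSC lines because KO1 and KO2 lay on opposite sides of WT. Its levels were 9.71 and 7.33 RPM in KO1, 16.2 and 20.5 RPM in KO2, and 10.1 and 13.7 RPM in WT. The difference itself was tested with edgeR and gave a log2 value of -1.09 for KO1 against KO2 (adjusted p = 0.0569), which just misses the threshold. It passed the threshold without the filter on low counts (-1.09, adjusted p = 0.0405), with a replicate block (-1.08, adjusted p = 0.0425) and with ERCC scaling (-1.25, adjusted p = 0.0225). Hoxb3 overlaps Hoxb4 and the antisense gene Hoxb3os, which had 2.06 and 3.49 RPM in KO1, 6.21 and 3.61 RPM in KO2, and 5.99 and 4.24 RPM in WT, and the part of these in the difference was not tested.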

How the results depend on the processing

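Counts of called Hox genes are given with the alternative first and the result as reported after it. DESeq2 called 1 against 2 for the mean of the KO lines and 1 against 2 for KO2. It called 6 against 8 for P7 against E17 and 8 against 8 for P7 against WT GSCs. For fetal cells against WT GSCs it called 16 against 21, and RLE scaling called 19. One fit of all 12 libraries called 1 of 22 tested Hox genes against 2 of 10 for KO2, and 1 of 22 against 0 of 13 for E17 against E16. For P7 against E17 it called 16 of 22 against 8 of 13, and leaving out the filter gave 14 of 35. More Hox genes were thus tested in these fits than in the fit as reported. Over all genes they called 11020 and 11296 for P7 against E17, against 10040. For KO1 against KO2, leaving out the filter, a replicate block and ERCC scaling each gave 1 against 0. With TMM in place of RPM the summed log2 ratio of E17 over E16 was 0.23 against 0.57 for HoxA and 0.31 against 0.65 for HoxB, and that of P7 over E17 was -2.71 against -2.87 for HoxC. The cause was not tested.

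Leaving out 1 library gave 1 to 2 calls for the mean of the KO lines, 0 to 1 for KO1, 1 to 3 for KO2, 0 to 0 for KO1 against KO2, 0 to 4 for E17 against E16, 7 to 9 for P7 against E17, 6 to 9 for P7 against WT GSCs and 17 to 20 for fetal cells against WT GSCs. The near-zero Hoxb3 value of the mean KO comparison (0.03) changed sign with ERCC scaling (-0.0017) and without WT replicate 1 (-0.16), KO1 replicate 1 (-0.09) or KO2 replicate 2 (-0.07), and Hoxb6 (0.17) without WT replicate 1 (-0.45), while without WT replicate 2 Hoxb6 was called (1.33). Other uncalled values also changed sign. Leaving out 1 library gave, for KO1 against WT, -0.04 to 0.36 for Hoxb1, -0.55 to 1.22 for Hoxb6, -0.13 to 0.15 for Hoxb7 and -0.17 to 0.31 for Hoxb8, and -0.34 to 1.43 for Hoxb6 in KO2. It gave -0.26 to 0.06 for Hoxb13 and -0.15 to 0.16 for Hoxb4 in KO1 against KO2, and -0.14 to 0.03 for Hoxb3, -0.68 to 0.32 for Hoxb7, -1.13 to 0.83 for Hoxc9 and -1.74 to 1.82 for Hoxc13 in E17 against E16, where Hoxc9 and Hoxc13 were called lower without E16 replicate 1. It gave -1.15 to 0.03 for Hoxb3 at P7 against E17 and -0.81 to 0.25 for Hoxb4 in fetal cells against WT GSCs. The near-zero KO1 values also changed sign with ERCC scaling for Hoxb6 (-0.06), Hoxb7 (-0.09) and Hoxb8 (-0.03) and with all libraries for Hoxb7 (-0.02), and Hoxb4 in KO1 against KO2 with a replicate block (0.01). Of the values recomputed for HoxB genes in each comparison and for other Hox genes called in it under any setting, 818 kept their direction and side of the threshold, 42 lost a call, 21 gained one and 27 changed sign.

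The replicate numbers only name the libraries. With a replicate block the counts were 2 for the mean of the KO lines, 0 for KO1, 2 for KO2, 1 for KO1 against KO2, 0 for E17 against E16, 9 for P7 against E17, 8 for P7 against WT GSCs and 20 for fetal cells against WT GSCs. Crossing the P7 numbers, a choice made after seeing the data, gave 8 for P7 against WT GSCs and 4820 genes in all.

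Counts over all genes moved more. For the mean of the KO lines they were 1083 with DESeq2, 1447 with ERCC scaling and 1421 with all libraries, against 2286. For KO1 they were 679 with DESeq2, 858 with all libraries, and 875 and 859 without KO1 replicate 1 and 2, against 1622. For KO2 they were 864 with DESeq2, 1191 with ERCC scaling, 1008 with all libraries, and 977 and 905 without KO2 replicate 1 and 2, against 1860. For KO1 against KO2 they were 35 with DESeq2, 39 with all libraries and 41 to 45 without a library, against 99. For E17 against E16 they were 1763 with all libraries and 232 to 3645 without a library, against 975, and for P7 against WT GSCs 3200 without P7 replicate 1, against 4909. With 2 libraries a group and most Hox genes below 20 RPM, small differences were not detectable at this depth.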
